A study of Homo sapiens with 8 samples.

Results

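A smooth muscle gene program of 10 genes was followed in IMR90, a line of diploid fibroblasts from human fetal lung that stops dividing after a limited number of passages. The 10 genes, of 28265 in the count tables, are MYOCD, ACTA2, ACTG2, TAGLN, CNN1, MYH11, LMOD1, TNNT2, CARMN and MIR145. They were picked by name from measured values of these same libraries, in which MYOCD lay above control after 3 days of treatment and below it after 6 days. Every comparison among control, 3 days and 6 days is therefore given for them as a description, without a p-value, and counts past a cutoff there are no test. The MetaICM libraries were not used for that choice, and there the genes were tested. For MYOCD no p-value is given there either, since its control and ICM libraries fixed the choice. For the other genes, the libraries set against MetaICM had also entered the choice, so their p-values are not independent of it.

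Factory RNA-Seq sequences the RNA that remains attached to transcription factories, where RNA polymerase II works in the nucleus, and thereby enriches for nascent RNA. The labels of these libraries, however, describe total RNA from cells lysed whole in Trizol and selected for poly(A), with no step that isolates factories, so the levels are given as exonic RNA and how far they reflect factory-bound RNA cannot be told from the sources used here. Each of 4 conditions had 2 libraries, all from low-passage IMR90 of the same cell type, human lung fibroblast. The control libraries, which the labels call young, came from cells without a stated treatment, and it is not given in the sources used here whether they received solvent. ICM (inflachromene), a small molecule that binds HMGB chromatin proteins, was given for 3 or for 6 days. The last pair of libraries is labelled MetaICM, a treatment that no source used here explains, and it is called by that label below. Counted read pairs ranged from 12095123 to 23166405 per library. Levels are given as CPM, the counts on exons divided by a library total that TMM scaled over all 8 libraries. The labels do not say that the 2 libraries of a condition came from separate cultures, so p-values measure only the spread between these libraries, which may be technical. In a bulk sample, fewer cells of a kind and less RNA per cell cannot be told apart.

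Myocardin, the product of MYOCD, is a coactivator that binds serum response factor (SRF). SRF sits on CArG boxes, short A/T-rich DNA motifs, in the promoters of smooth muscle genes, and myocardin or the related cofactors MRTFA and MRTFB switch these genes on. MRTFs are held in the cytoplasm by actin monomers and enter the nucleus when actin polymerizes, which couples the genes to the state of the cytoskeleton. Activated fibroblasts (myofibroblasts) also make part of this apparatus, with smooth muscle actin as the usual marker. CARMN is a long noncoding RNA from the locus that also encodes the microRNAs miR-143 and miR-145, both of which are abundant in smooth muscle.

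The sequences below show what the noncoding locus encodes and where the promoters carry the motif that SRF reads. MIR145 lies on chromosome 5 of hg19 (GRCh37), chr5:148810209-148810296 on the plus strand, between exons of CARMN on the same strand, 23801 bases after the start of CARMN and 2103 before its end. Its 88-base hairpin, read from GRCh37 and identical to the RefSeq entry, carries both mature arms, shown in capitals. In the mature sequences from RefSeq (GRCh38.p14), the capitals mark the seed, bases 2 to 8, which pairs with target RNAs. The neighbouring miR-143 is shown because it shares the locus. No seed is shared between the 4 arms.
MIR145 hairpin: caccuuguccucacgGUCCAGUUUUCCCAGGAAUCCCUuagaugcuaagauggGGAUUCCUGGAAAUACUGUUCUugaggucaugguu
hsa-miR-145-5p: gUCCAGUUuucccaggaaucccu
hsa-miR-145-3p: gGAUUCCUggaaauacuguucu
hsa-miR-143-5p: gGUGCAGUgcugcaucucuggu
hsa-miR-143-3p: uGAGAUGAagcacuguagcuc

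Of the 10 genes, 6 had a promoter among the RefSeq windows of 300 bases (250 before to 50 after a start, GRCh38.p14), with 7 windows in all; none is shown for MYOCD, TAGLN, MYH11 and MIR145. The CArG box was searched on both strands as CC, then 6 bases that are A or T, then GG. It was present in 1 of the 7 windows, that of ACTG2, with 2 boxes. Over all 35116 promoters of the same length, 454 (1.29%) held at least 1. With at most 1 mismatch, 5 of the 7 windows held a match (ACTG2, TNNT2, LMOD1, CARMN and 1 of the 2 ACTA2 starts), against 18.9% of all promoters. The other ACTA2 start and CNN1 had none within this window. The stretches shown are from both actin genes, the genes of highest level per length, and from CARMN, with the match in capitals, 5′ to 3′ along the gene. A further match of ACTG2 and a further match of CARMN, each with 1 mismatch, are not shown. A match describes letters and is not a measured binding site.
ACTG2, chr2:73892873-73892932, plus strand, exact match: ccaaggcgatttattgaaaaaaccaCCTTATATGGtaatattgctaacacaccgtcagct
ACTG2, chr2:73892910-73892969, plus strand, exact match: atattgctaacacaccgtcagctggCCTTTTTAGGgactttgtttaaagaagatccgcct
ACTA2, chr10:88952860-88952919, minus strand, 1 mismatch: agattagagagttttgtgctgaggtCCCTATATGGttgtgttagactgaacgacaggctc
ACTA2, chr10:88952810-88952869, minus strand, 1 mismatch: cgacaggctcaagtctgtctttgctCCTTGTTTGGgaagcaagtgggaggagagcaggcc
CARMN, chr5:149406645-149406704, plus strand, 1 mismatch: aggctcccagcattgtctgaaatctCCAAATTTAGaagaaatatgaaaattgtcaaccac

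Across the conditions the 10 genes fell into patterns that the treatment times separated. MYOCD was above control after 3 days of ICM and below it after 6 days. The genes of the contractile apparatus (ACTA2, ACTG2, TAGLN, CNN1, MYH11, LMOD1, TNNT2) were already far below control after 3 days. After 6 days they lay nearer to those levels than to control. LMOD1 had a log2FC of −0.61 between the times, and TNNT2 had 1 count at each. CARMN and MIR145 were below control after 3 days and much lower again after 6 days. In MetaICM, the actins, TAGLN, CNN1, LMOD1 and TNNT2 were nearer on the log2 scale to control than to either ICM time. MYH11 was nearer to both ICM times than to control, CARMN and MIR145 were nearest to 3 days, and MYOCD was nearest to 6 days. In these 4 conditions, the level of MYOCD and those of the contractile genes were therefore not ordered alike, a description that depends in part on how MYOCD was chosen.

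**Figure D1:**
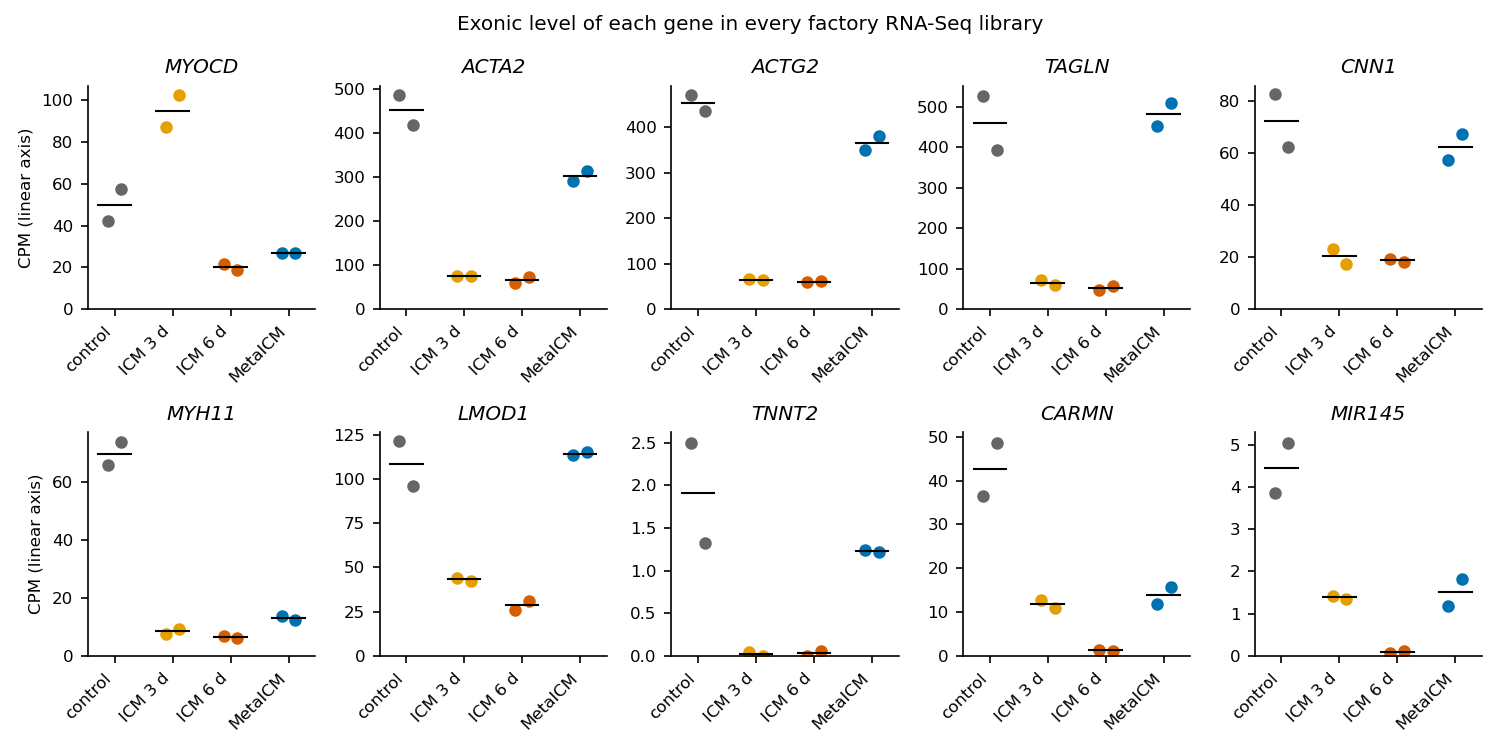
Exonic level (CPM, linear axes that start at 0, a panel per gene) in each library of control, ICM for 3 days (ICM 3 d), ICM for 6 days (ICM 6 d) and MetaICM; points are libraries and bars the mean of 2. MYOCD is highest after 3 days of ICM (87.0 and 103 CPM), whereas the other genes are highest in control or in MetaICM.

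Genes passed the test of edgeR (quasi-likelihood, p-values adjusted by Benjamini and Hochberg over all genes tested) when the adjusted p was under 0.05 and the absolute log2FC over 0.6. After 3 days of ICM, 1 of the 10 genes passed as higher, where 8.85% of all genes did, and 9 as lower, where 13.2% of all genes did. After 6 days, 0 of 10 passed as higher (13.3% of all genes) and 10 as lower (17.2% of all genes). Of the 9 that entered the fit between 6 and 3 days, 0 passed as higher (3.53% of all genes) and 4 as lower (4.54% of all genes); TNNT2 was left out there for low counts. As the genes were chosen with these comparisons known, nothing is read from those counts. Their median log2FC was −2.21 after 3 days and −3.02 after 6 days against control, beside a median over all tested genes of 0.0094 and −0.0013. Both comparisons used the same control libraries. With library totals in place of TMM, the split of all genes after 3 days moved from 1389 higher and 2067 lower to 1785 and 1767.

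MYOCD lies on chromosome 17 of hg19 (12569207 to 12672265, plus strand). Its levels were 42.3 and 57.5 CPM in control, 87.0 and 103 CPM at 3 days, 21.5 and 18.5 CPM at 6 days and 26.9 and 26.7 CPM in MetaICM. Both 3-day libraries were above both control libraries, and all libraries of 6 days and of MetaICM were below them. The log2FC against control was 0.92 (standard error 0.16) after 3 days, that is 1.90-fold higher, and −1.32 (standard error 0.17) after 6 days, or 2.49-fold lower. From 3 to 6 days the log2FC was −2.25 (standard error 0.12). The 2 control libraries differed from each other, so that the 3-day value ranged from 0.72 to 1.14 and the 6-day value from −1.53 to −1.08 when single libraries were left out.

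In MetaICM, the log2FC of MYOCD was −0.89 (standard error 0.15) against control. It was −1.81 (standard error 0.10) against 3 days of ICM and 0.42 (standard error 0.10) against 6 days. All are given as a description, since the control and ICM libraries had entered the choice of the gene. MYOCD shares 704 of its 8564 exon bases with LOC100128006 on the opposite strand, and the counting did not use strand. That gene had 3.27 and 3.64 CPM in control, 4.83 and 4.31 after 3 days, 1.61 and 1.28 after 6 days and 1.98 and 1.39 in MetaICM. Reads of the 2 genes cannot be told apart by strand, although those on shared bases were not counted for either.

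ACTA2 (chromosome 10, 90694831 to 90751154, minus strand) encodes the smooth muscle α-actin. It had 486 and 419.7 CPM in control, 75.3 and 74.9 CPM at 3 days, 58.8 and 72.2 CPM at 6 days, and 291 and 314 CPM in MetaICM. The libraries of ICM lay far below all others, and those of MetaICM lay between ICM and control without overlap. The log2FC against control was −2.60 (standard error 0.13) after 3 days, −2.79 (standard error 0.14) after 6 days, and −0.59 in MetaICM (standard error 0.12, adjusted p = 0.00653 from edgeR's test), the last short of the cutoff. Without control replicate 2, the MetaICM value was −0.69 and passed. MetaICM exceeded 3 days of ICM 4.04-fold (adjusted p = 2.31e-10 in edgeR) and 6 days 4.62-fold (adjusted p = 1.17e-14).

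ACTG2 (chromosome 2, 74120135 to 74146991, plus strand), the γ-actin of visceral smooth muscle, shares no exon base with another gene. Its levels were 470.2 and 436 CPM in control, 67.0 and 63.1 CPM after 3 days, 58.7 and 61.6 CPM after 6 days, and 350.2 and 382 CPM in MetaICM. As for ACTA2, the 4 libraries of ICM stood apart from the rest. Its log2FC against control was −2.80 and −2.92 at the 2 times (standard errors 0.13 and 0.12). In MetaICM it reached −0.31 (edgeR, standard error 0.11 and adjusted p = 0.0654), which did not pass, and MetaICM exceeded both ICM times (log2FC 2.50 and 2.61, adjusted p = 4.67e-11 and 1.46e-16 from the same edgeR tests). The cytoplasmic actins, which every cell makes and whose sequences resemble those of the muscle actins, had smaller log2FC, near the cutoff. ACTB fell by 0.77 on the log2 scale after 3 days (adjusted p = 0.00143 from edgeR's test) and ACTG1 by 0.61 (adjusted p = 0.00845); after 6 days ACTB fell by 0.62 (adjusted p = 0.0024), and ACTG1 had −0.57, short of the cutoff. With library totals, ACTG1 at 3 days (−0.53) and ACTB at 6 days (−0.58) did not pass either, and both lost the call without control replicate 1 (−0.44 and −0.55). ACTC1, the actin of heart muscle, was close to the detection limit, with 18 and 7 counts in control, 8 and 3 after 3 days, 5 and 3 after 6 days and 4 and 3 in MetaICM. It fell after 6 days (log2FC −1.96, adjusted p = 0.0213 from edgeR's test) and in MetaICM (−2.35, adjusted p = 0.0193), and was not tested after 3 days for low counts. Neither call held with DESeq2 (−1.95 and −2.34), nor when the libraries of 6 days or of MetaICM were left out singly (−2.35 and −1.63 for 6 days, −2.61 and −2.04 for MetaICM), and without control replicate 1 the 6-day value was −1.42 and did not pass.

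TAGLN (chromosome 11, 117070010 to 117078181, plus strand) encodes transgelin, or SM22α, a protein that binds actin filaments. Its levels were 528 and 392 CPM in control, 70.8 and 60.2 CPM after 3 days, 48.2 and 57.0 CPM after 6 days, and 453 and 510.3 CPM in MetaICM. MetaICM and control overlapped, and both were above all ICM libraries. The log2FC against control was −2.81 (standard error 0.16) and −3.13 (standard error 0.16) for ICM and 0.06 (standard error 0.15, adjusted p = 0.781 from edgeR's test) for MetaICM, with a 95% interval, taken from the standard error, from −0.23 to 0.35. That last value changed sign without control replicate 2 (−0.13) and without MetaICM replicate 2 (−0.010). Of the 4260 exon bases, 2232 overlap PCSK7 on the opposite strand and took no counts.

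CNN1 (chromosome 19, 11649666 to 11661138, plus strand) encodes calponin, which inhibits the ATPase of myosin. Its levels were 82.5 and 62.1 CPM in control, 23.3 and 17.5 CPM after 3 days, 19.3 and 18.1 CPM after 6 days, and 57.4 and 67.1 CPM in MetaICM. Both ICM times overlapped each other, and MetaICM overlapped control. The log2FC was −1.82 (standard error 0.18) and −1.95 (standard error 0.15) for ICM, and −0.22 (standard error 0.15, adjusted p = 0.286 from edgeR's test) for MetaICM, with an interval from −0.51 to 0.07. It was 0.0080 without control replicate 1. MetaICM exceeded 3 days of ICM 3.04-fold (adjusted p = 1.64e-07 from edgeR's test) and 6 days 3.33-fold (adjusted p = 1.69e-12). Among its paralogs, CNN2 fell after 3 days (log2FC −0.77, adjusted p = 0.000837 from edgeR's test) and after 6 days (−1.19, adjusted p = 1.58e-05), whereas CNN3 did not pass at either time (0.24 and 0.49, adjusted p = 0.186 and 0.00418).

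LMOD1 (chromosome 1, 201865584 to 201915676, minus strand) encodes leiomodin, which starts new actin filaments. It had 122 and 96.0 CPM in control, 44.2 and 42.5 CPM after 3 days, 25.8 and 31.2 CPM after 6 days, and 114 and 115 CPM in MetaICM. The 6-day libraries were below the 3-day libraries, and MetaICM lay between the 2 control libraries. Relative to control, its log2FC was −1.33 (standard error 0.15) after 3 days, −1.94 (standard error 0.15) after 6 days, and 0.07 in MetaICM (standard error 0.13, adjusted p = 0.719 from edgeR's test), with an interval from −0.18 to 0.31. Without control replicate 2 the MetaICM value was −0.089. From 3 to 6 days the log2FC was −0.61, which sits at the cutoff. That value was −0.47 when 6-day replicate 1 was left out and −0.75 when 6-day replicate 2 was.

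MYH11 (chromosome 16, 15796992 to 15950887, minus strand) encodes the smooth muscle myosin heavy chain, the motor that is most restricted to this cell type. Its levels were 65.6 and 73.6 CPM in control, 7.59 and 9.10 CPM after 3 days, 6.77 and 6.16 CPM after 6 days, and 13.8 and 12.2 CPM in MetaICM. Unlike the actins, MYH11 in MetaICM was nearer to the ICM libraries than to control. Against control, the log2FC was −3.07 (standard error 0.16) and −3.43 (standard error 0.15) for ICM. For MetaICM it reached −2.43 (edgeR, standard error 0.13 and adjusted p = 1.03e-05), or 5.37-fold lower. MetaICM exceeded 6 days of ICM by 1.00 (adjusted p = 5.45e-06 from edgeR's test) and 3 days by 0.65 (adjusted p = 0.00374). The second of these fell short of the cutoff without 3-day replicate 1 (0.51), without MetaICM replicate 1 (0.57), with library totals (0.596) and when every library was thinned to equal depth (0.588). Its nonmuscle paralogs had smaller log2FC. MYH10 fell by 1.80 after 3 days (adjusted p = 6.04e-07 from edgeR's test) and by 0.75 in MetaICM (adjusted p = 0.00182), and MYH9 by 0.65 after 3 days (adjusted p = 0.00728), a call lost with library totals (−0.57) and without control replicate 1 (−0.46) or either 3-day library. After 6 days MYH10 fell by 1.70 (adjusted p = 1.18e-06 from edgeR's test) and MYH9 by 0.91 (adjusted p = 0.000673).

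TNNT2 (chromosome 1, 201328142 to 201346808, minus strand), troponin T of cardiac muscle, was near the detection limit. Read pairs on its exons numbered 42 and 16 in control, 1 and 0 after 3 days of ICM, 0 and 1 after 6 days, and 25 and 28 in MetaICM. Hence 1 count per condition stood for ICM. Control was 73.4-fold above 3 days (95% exact binomial interval from 12.7 to 2950) and 75.2-fold above 6 days (interval from 13.0 to 3019). Such intervals, here and below, cover counting error only. MetaICM did not pass against control (log2FC −0.68, standard error 0.37, adjusted p = 0.194 from edgeR's test), and its value depended on control replicate 2, without which it was −1.02 and passed. Against 3 days of ICM, MetaICM was 44.9-fold higher (interval from 7.71 to 1805, adjusted p = 6.79e-05 from edgeR's test).

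CARMN (chromosome 5, 148786408 to 148812399, plus strand) had 36.5 and 48.6 CPM in control, 12.8 and 11.0 CPM at 3 days, 1.34 and 1.06 CPM at 6 days, and 11.9 and 15.7 CPM in MetaICM. The 6-day libraries were the lowest by far, and MetaICM overlapped the 3-day libraries. The log2FC against control was −1.83 (standard error 0.18) after 3 days and −5.14 (standard error 0.23) after 6 days, and the log2FC from 3 to 6 days was −3.31 (standard error 0.23). Whereas the tested contractile genes of the 10 differed between the 2 times by at most −0.61, CARMN thus was 9.91-fold lower at the later one. MetaICM was below control by −1.62 (standard error 0.18, adjusted p = 0.000339 from edgeR's test) and above 6 days by 3.52 (standard error 0.22, adjusted p = 1.49e-11). Against 3 days its difference of 0.22 did not pass (adjusted p = 0.290, interval from −0.09 to 0.52) and was −0.0070 without MetaICM replicate 2.

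MIR145 had 65 and 61 counts in control, 31 and 20 after 3 days, 1 and 2 after 6 days, and 24 and 42 in MetaICM. These are read pairs on the 88 bases of the hairpin shown above, and so reflect the primary transcript rather than the mature microRNA, which is shorter than such libraries hold. The order of the conditions was that of CARMN. Control exceeded 6 days 54.4-fold (95% exact binomial interval from 18.2 to 267), and 3 days exceeded 6 days 17.4-fold (interval from 5.63 to 87.2). The log2FC of MetaICM against control was −1.54 (edgeR, standard error 0.30 and adjusted p = 0.00534) and 0.13 against 3 days (adjusted p = 0.784, interval from −0.53 to 0.79), the latter −0.23 without MetaICM replicate 2. MetaICM exceeded 6 days 19.1-fold (interval from 6.24 to 94.8, adjusted p = 4.50e-06 from edgeR's test).

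MIR145 and the exons of CARMN kept a like ratio. The hairpin took 9.50% of the counts of both in control (126 of 1327, 95% exact Clopper-Pearson interval from 7.97% to 11.2%), 10.4% after 3 days (51 of 492, interval from 7.82% to 13.4%) and 9.88% in MetaICM (66 of 668, interval from 7.72% to 12.4%). After 6 days it was 6.25% (3 of 48), with an interval from 1.31% to 17.2% that holds the other shares, so that a difference was not detectable at this depth. MIR143 had 0 counts in every library. All of its 106 bases lie on an exon of CARMN, and pairs on 2 genes were not counted, so its 0 says nothing about its level.

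**Figure D2:**
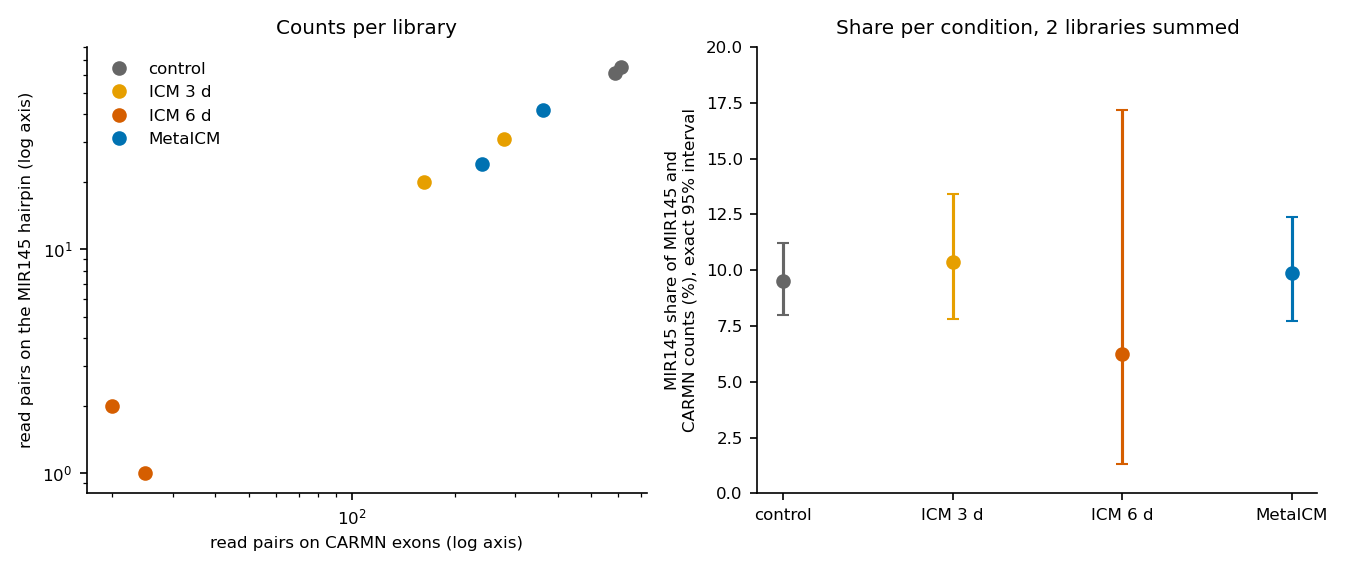
Left, read pairs on the MIR145 hairpin against those on CARMN exons, a point per library (both axes logarithmic); right, the share of MIR145 in the counts of both per condition, with exact 95% intervals for counting error. The 6-day libraries lie apart at 20 and 25 CARMN counts, while the shares stay between 6.25% and 10.4%.

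Levels of different genes were compared per length, as counts per kilobase of exon, scaled as for CPM (RPKM), counting only exon bases not shared with another gene. In control, ACTA2 led with 351 ± 36.4 RPKM (SD, n = 2 libraries), then ACTG2 with 302 ± 16.2 and TAGLN with 227 ± 47.3. MYOCD had 6.35 ± 1.36 RPKM, and TNNT2 1.46 ± 0.632, the lowest of the 10. No neighbours in this order overlapped except MIR145, CARMN and CNN1 (50.7, 47.4 and 40.7 RPKM). MIR145 is shorter than a sequenced fragment, which makes its level per length unreliable.

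After 3 days, MYOCD stood at 12.1 ± 1.40 RPKM, a level that overlapped those of CARMN (13.2) and CNN1 (11.5), its neighbours in the order, with LMOD1 next at 11.0. After 6 days the order was ACTA2 (50.7 ± 7.34 RPKM), ACTG2, TAGLN, CNN1, LMOD1, MYOCD (2.55 ± 0.264), CARMN (1.34), MYH11 (1.00), MIR145 and TNNT2, with an overlap between MYH11 and MIR145. In MetaICM the leading 3 genes could not be separated, with 244 ± 14.9 RPKM for ACTG2, 238 ± 19.9 for TAGLN and 234 ± 12.7 for ACTA2. When all exon bases were counted, ACTG2 came before ACTA2 in every condition, so the order of the 2 actins rests on the length used.

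**Figure D3:**
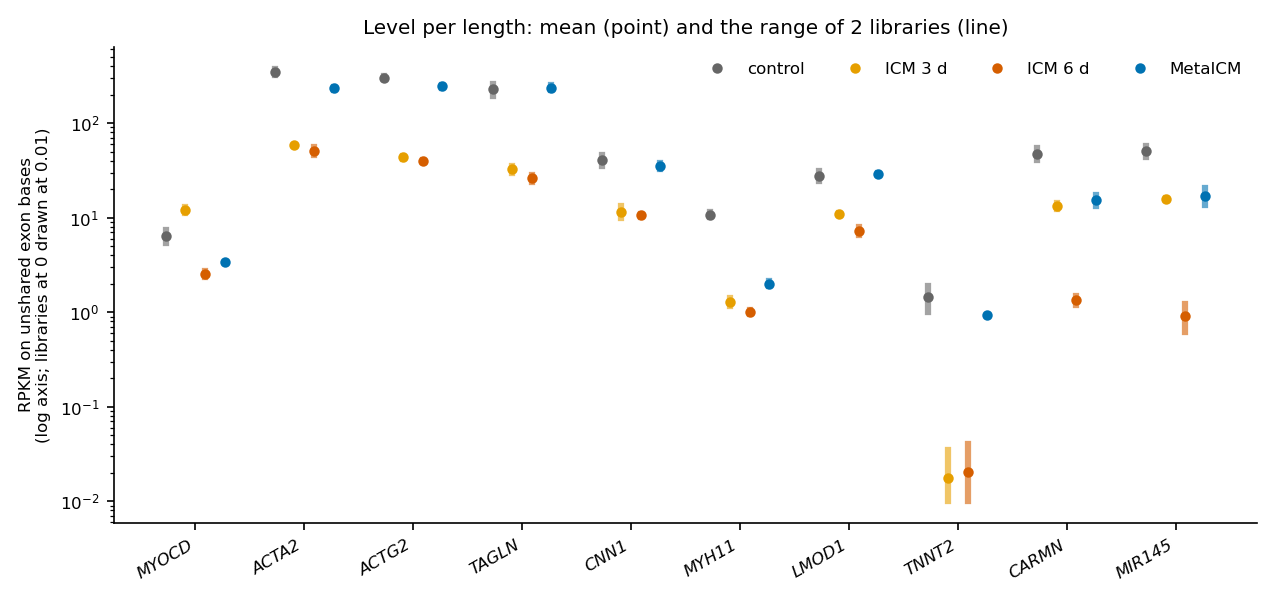
Level per length (RPKM on unshared exon bases, logarithmic axis) of each gene in the 4 conditions, the point being the mean and the line the range of 2 libraries. ACTA2, ACTG2 and TAGLN are highest in every condition, between 227 and 351 RPKM in control, and TNNT2 is lowest.

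Read together, the MetaICM comparisons divided the genes. Against control, 0 of 10 genes were higher, where 7.41% of all tested genes were. Those lower numbered 4 (MYH11, CARMN, MIR145 and, as a description, MYOCD), where 8.99% were. The number lower depended on control replicate 2. Against 3 days of ICM, 7 of 10 were higher, where 13.1% of all genes were, and 1 was lower (MYOCD, as a description), where 10.3% were. Against 6 days, 9 of 10 were higher, where 15.7% were, and 0 lower, where 12.0% were. MYOCD was not among the 9 (log2FC 0.42, as a description). It is kept in these counts of 10 and in the medians below, which are no test of MYOCD. Both counts of 0 were also 0 at an unadjusted p under 0.05 in edgeR and by DESeq2. The median log2FC of the 10 genes was −0.63 against control, 1.50 against 3 days and 2.41 against 6 days, with all-gene medians of −0.0011, 0.0093 and 0.0069. The libraries set against MetaICM here were those on which the genes had been selected, so these counts and p-values are not independent of that choice. The 3 comparisons also share the MetaICM libraries.

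**Figure D4:**
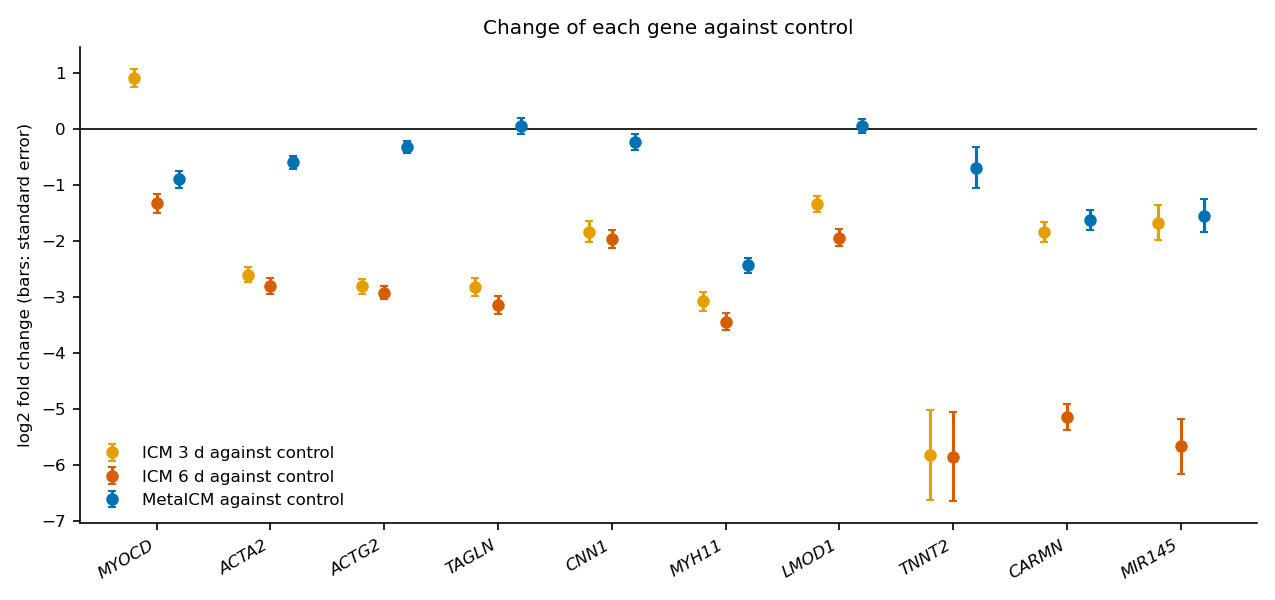
Log2FC against control of each gene for ICM 3 d, ICM 6 d and MetaICM (bars, standard error). MYOCD is the only gene of the 10 above 0 after 3 days (0.92), and MYH11, CARMN and MIR145 are the lowest in MetaICM (−2.43, −1.62 and −1.54).

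SRF and MRTFB were lower than control after 6 days, whereas MRTFA did not pass at either time. SRF, the DNA-binding partner, had 50.4 ± 1.27 CPM (SD, n = 2) in control, 44.0 ± 11.3 after 3 days, 24.1 ± 0.614 after 6 days and 51.5 ± 10.1 in MetaICM. It did not pass after 3 days (log2FC −0.19, adjusted p = 0.439 from edgeR's test) and fell after 6 days (−1.07, adjusted p = 8.10e-05). In MetaICM its log2FC was 0.03 against control (adjusted p = 0.896 from edgeR's test) and 1.10 against 6 days (adjusted p = 2.38e-08). MRTFA had its highest level after 3 days, with 78.4 CPM in control, 112 after 3 days, 85.3 after 6 days and 70.7 in MetaICM, and a log2FC of 0.51 after 3 days (adjusted p = 0.0101 from edgeR's test, short of the cutoff) and 0.12 after 6 days (adjusted p = 0.492). MRTFB fell after 6 days (−0.72, adjusted p = 0.00543 from edgeR's test) and in MetaICM (−0.83, adjusted p = 0.00515), with −0.43 after 3 days (adjusted p = 0.0981). Without control replicate 2 neither call held (−0.46 and −0.57), and without control replicate 1 the 3-day value passed (−0.65).

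Of 20 regulators of the program (SRF, its cofactors, and factors that act with or against them), 18 were tested against control after 3 days, of which 1 was higher (FOXO4) and 2 lower (GATA6 and PRDM6), with a median log2FC of −0.20. Over all genes tested the shares were 8.85% higher and 13.2% lower. The list of regulators was drawn up with earlier results of these data known, so its counts and p-values are read as a description. After 6 days, 1 of 18 was higher and 9 lower, with a median of −0.60, beside 13.3% and 17.2% of all genes. FOXO4, a forkhead factor that binds myocardin and represses it, rose at both times (1.25 and 1.50, adjusted p = 0.00367 and 0.000534 from edgeR's tests). KLF4, another repressor of smooth muscle genes, had 0.07 after 3 days (adjusted p = 0.876 from edgeR's test) and fell after 6 days (−1.08, adjusted p = 0.0111), a call lost with DESeq2 (−1.07) and without control replicate 1 (−0.86) or 6-day replicate 1 (−0.98). Between 3 and 6 days, 5 of 18 fell (KLF4, SRF, MEF2D, CSRP2 and FHL2) and 0 rose, with 1 higher at an unadjusted p under 0.05 in edgeR and 0 called by DESeq2, where 4.54% of all genes were lower and 3.53% higher. MEF2D, a muscle transcription factor, had 42.2 CPM in control, 47.0 after 3 days, 29.1 after 6 days and 32.4 in MetaICM. SRF did not pass between the times without 3-day replicate 1 (−0.58), nor FHL2 (−0.62) without 3-day replicate 1 (−0.58) or 6-day replicate 1 (−0.595). In MetaICM, 6 of 18 were lower than control and 0 higher, with a median of −0.51, and those higher also numbered 0 at an unadjusted p under 0.05 in edgeR and 0 by DESeq2 (all genes, 8.99% lower and 7.41% higher). The largest decrease among the regulators was that of PRDM6, a repressor found in smooth muscle, by 3.08 (standard error 0.38, adjusted p = 0.000619 from edgeR's test). Against 3 days of ICM, 1 of 19 was higher and 6 lower in MetaICM (13.1% and 10.3% of all genes), and against 6 days 3 of 18 were higher and 2 lower (15.7% and 12.0%). PRDM6 was lower than at both times (−2.16 and −2.06, adjusted p = 0.000169 and 3.92e-05 from edgeR's tests). FOXO4 was lower too (−0.78 and −1.03, adjusted p = 0.00683 and 7.95e-05 in edgeR), the first not called without MetaICM replicate 1 (−0.65). The number lower after 3 days was 5 when control replicate 1 was left out, and 1 when control replicate 2 or 3-day replicate 2 was.

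The contractile apparatus beyond the 10 genes was described with a list of 40. This list and those of paralogs and markers were also drawn up with earlier results known, so the same limit holds for them. After 3 days, 35 were tested, of which 0 rose in edgeR (0 at an unadjusted p under 0.05, and 0 by DESeq2) and 16 fell, with a median log2FC of −0.55, beside 8.85% and 13.2% of all genes. The largest decreases were those of DES, the muscle intermediate filament protein desmin (−2.07, adjusted p = 0.00475 from edgeR's test), and PDLIM3, an actinin-binding protein (−2.00, adjusted p = 0.00233). MYLK, the kinase that switches on smooth muscle myosin, fell by 1.13 (adjusted p = 6.52e-05 from edgeR's test). After 6 days, 1 of 36 rose (HSPB6, a small heat shock protein, 1.24, adjusted p = 0.0213 from edgeR's test) and 17 fell, with a median of −0.50, beside 13.3% and 17.2% of all genes. JPH2, which ties the plasma membrane to the calcium store, fell by 3.03 (adjusted p = 2.53e-05 from edgeR's test) and PDLIM7 by 2.18 (adjusted p = 3.38e-07). From 3 to 6 days, 4 of 36 fell further (JPH2, PDLIM7, TGFB1I1 and TPM1) and 1 rose (SYNPO2, 0.73, adjusted p = 0.000149 from edgeR's test), beside 4.54% and 3.53% of all genes. With 1 library left out, the number that rose after 3 days reached 1 (without control replicate 2), that after 6 days 0 (without control replicate 1 or 6-day replicate 2), and that between the times 2 (without 3-day replicate 2).

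In MetaICM the same list had 5 genes above control and 6 below of 36, with a median log2FC of −0.041, where 7.41% and 8.99% of all genes passed. ITGA8, an integrin of smooth muscle and myofibroblasts, was higher by 3.35 (standard error 0.17, adjusted p = 6.96e-06 from edgeR's test), with 54.0 ± 7.59 CPM (SD, n = 2) against 5.24 ± 0.503 CPM. SYNPO2, an actin-bundling protein, was higher by 0.83 (adjusted p = 0.00196 from edgeR's test). HSPB6 was higher by 1.12 (adjusted p = 0.0439 from edgeR's test), a call lost with DESeq2 (1.09), at equal depth (1.03), without control replicate 1 (0.52) and without either MetaICM library (1.11 and 1.13). CACNA1C, the L-type calcium channel, was lower by a log2FC of −1.69 (adjusted p = 5.18e-05 from edgeR's test), and PLN, the inhibitor of the calcium pump, by −1.03 (adjusted p = 0.00898). Against 3 days of ICM, 17 of 36 were higher and 1 lower, and against 6 days 18 higher and 2 lower, with a median of 0.57 in both, where 13.1% and 15.7% of all genes were higher and 10.3% and 12.0% lower. ITGA8 led at both times (log2FC 3.95 and 3.40, adjusted p = 7.16e-11 and 2.09e-15 from edgeR's tests). After it came PDLIM3 (2.08) and SYNPO2 (1.65) against 3 days, and JPH2 (2.75) and TGFB1I1 (1.93) against 6 days. PLN was lower than at both times (−1.13 and −1.38, adjusted p = 0.00214 and 2.51e-06 in edgeR). The count above control was 3 without MetaICM replicate 2, and the count below 3 days was 2 without either 3-day library. Of 15 paralogs of the 10 genes, 0 rose and 5 fell after 3 days (8 tested), 0 and 5 after 6 days (9 tested), and 0 and 2 in MetaICM (9 tested), beside the same shares of all genes as above. Between 3 and 6 days 0 of 7 paralogs passed with edgeR, where 1 was higher and 3 lower at an unadjusted p under 0.05, and 0 passed with DESeq2. At that unadjusted p, 0, 1 and 2 paralogs were higher after 3 days, after 6 days and in MetaICM, and DESeq2 called 0 in each. In MetaICM, 5 of 8 paralogs were higher than after 3 days of ICM (MYH10, ACTB, CNN2, MYH9 and ACTG1). Against 6 days, 6 of 8 were higher, namely these and TAGLN2. The shares of all genes higher were 13.1% and 15.7%. Lower were 0 at both times, also at an unadjusted p under 0.05 in edgeR and with DESeq2, where 10.3% and 12.0% of all genes were.

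**Figure D5:**
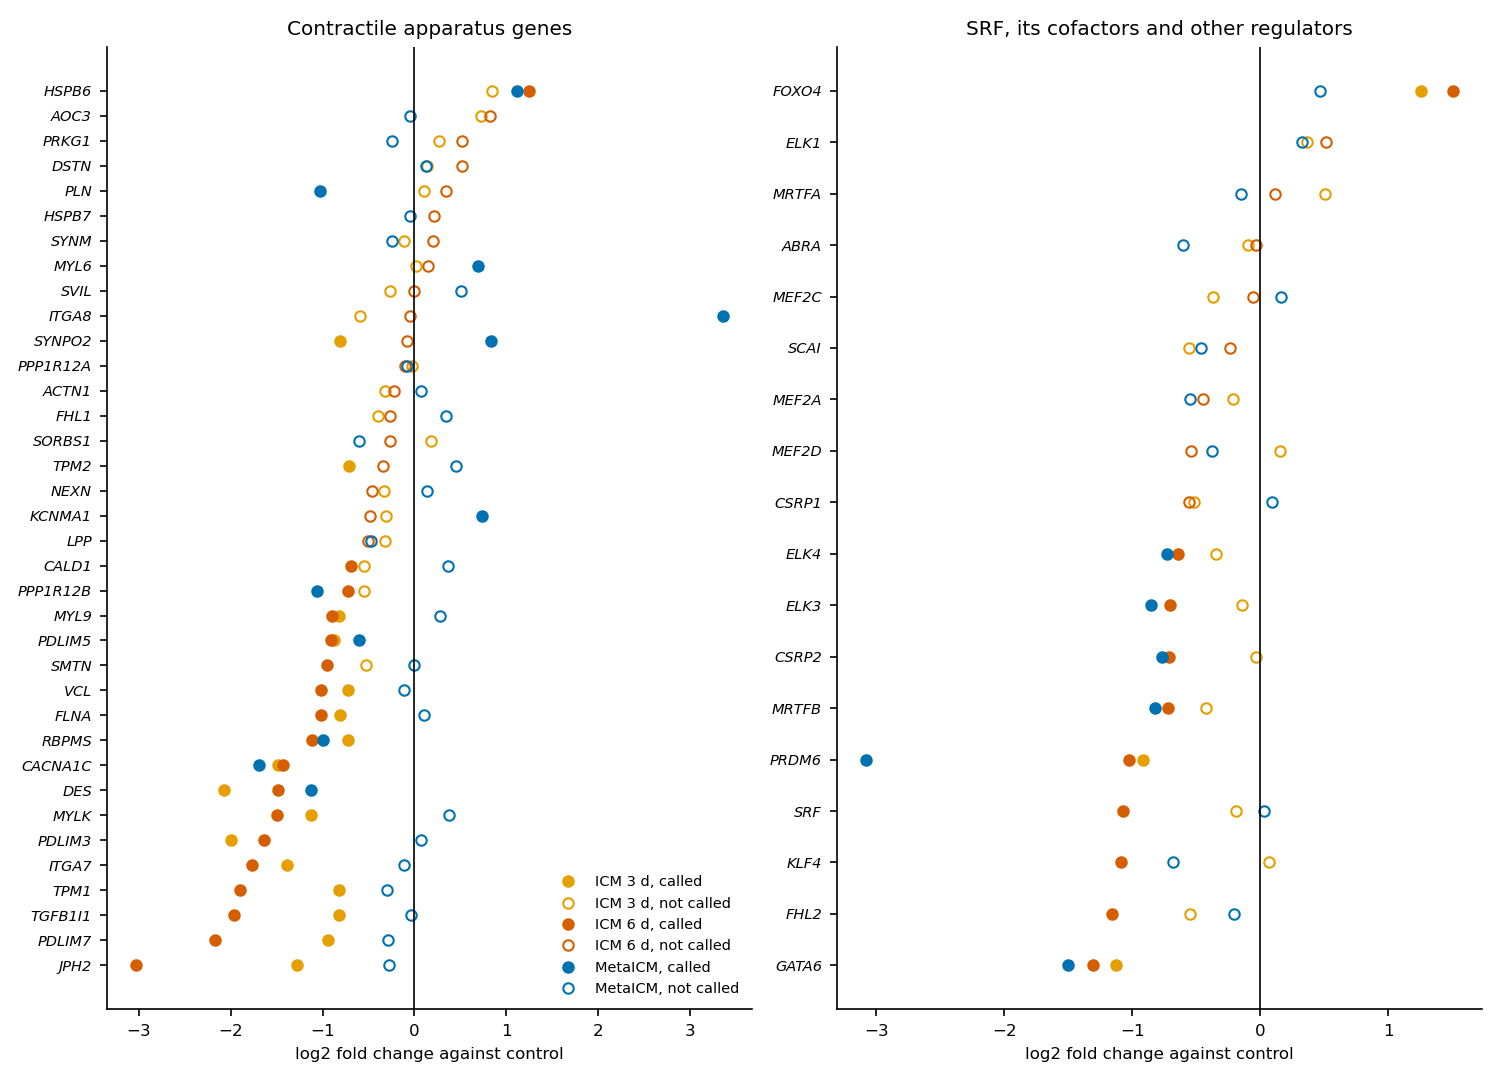
Log2FC against control of the contractile apparatus genes (left) and of the regulators (right) that were tested, for ICM 3 d, ICM 6 d and MetaICM; filled points passed the test and open points did not. JPH2 reaches −3.03 after 6 days, ITGA8 3.35 in MetaICM, and PRDM6 −3.08 in MetaICM.

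As a description of which genes had a like pattern, log2 CPM was correlated over the 8 libraries among 14468 genes with a mean of at least 1 CPM. The libraries of a condition lie together, so such a value mainly compares 4 levels. The genes most like MYOCD were NR1D2 (Pearson's r = 0.979), BMF (0.977), LOC101929532 (0.974), MEF2D (0.971) and MOV10L1 (0.969). FAP shares 397 of its 2696 exon bases with LOC101929532 on the opposite strand, and had 127 CPM in control, 151 after 3 days, 95.6 after 6 days and 73.4 in MetaICM. Reads of both cannot be told apart by strand, although those on shared bases were not counted for either. NR1D2 encodes a nuclear receptor of the circadian clock, BMF a BCL2 family protein that favours cell death, and MEF2D a transcription factor of muscle and other cells. BMF had 8.75 ± 0.662 CPM (SD, n = 2) in control, 15.2 ± 0.0782 after 3 days, 2.91 ± 0.135 after 6 days and 4.42 ± 0.375 in MetaICM. For the contractile genes r with MYOCD was low, at −0.040 for ACTA2 and −0.099 for TAGLN, and CARMN (0.577) and MIR145 (0.588) lay between. As MYOCD was chosen for its turn between the 2 times of ICM, these values depend on that choice and are no test. With library totals, AMBRA1 took the place of MOV10L1.

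The genes most like the mean of ACTA2, TAGLN and CNN1 were PRC1 (r = 0.999), CDC20 (0.998), ICAM1 (0.998), NEK2 (0.998) and ZNF367 (0.997), with ACTG2 next (0.997). PRC1 bundles microtubules in dividing cells, CDC20 activates the anaphase-promoting complex and NEK2 is a kinase of the centrosome. How common genes of cell division are among all genes ranked was not tested. PRC1 had 122 ± 16.6 CPM (SD, n = 2) in control, 12.1 ± 1.33 after 3 days of ICM, 10.4 ± 1.06 after 6 days and 88.3 ± 4.25 in MetaICM. LMOD1 (0.974) was at rank 325 of 14468 genes, so a high r was common and not particular to the genes named. MYH11 (0.795), CARMN (0.765) and MIR145 (0.752) were much further down the order.

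The fibroblast identity of the libraries was checked with markers. Of 11 fibroblast markers, S100A4 alone stayed under 1 CPM in every library. Their summed level was 23253 to 23421 CPM in control, 13049 to 14433 after 3 days and 11050 to 11418 after 6 days. In MetaICM it was 20391 to 21281, and its part in the results was not tested. COL1A1 and COL1A2 were highest, with 8442 and 6907 CPM in control. After 3 days 7 of 11 markers fell, and after 6 days 6 of 10 (13.2% and 17.2% of all genes). In MetaICM, 6 of 11 passed as higher than after 3 days and 1 as lower (13.1% and 10.3% of all genes). Against 6 days, 7 of 11 passed as higher and 0 as lower (15.7% and 12.0% of all genes). COL3A1 did not pass against control in any condition. In MetaICM, VIM was higher than control (log2FC 0.68, adjusted p = 0.00601 from edgeR's test) and FAP lower (−0.79, adjusted p = 0.00124). Markers of pericytes, which share actin and myosin genes with smooth muscle, summed to 232 to 278 CPM in control, 105 to 110 after 3 days, 86.8 to 96.0 after 6 days and 359 to 395 in MetaICM, and their part was not tested either. That sum was carried by CSPG4, a surface proteoglycan, with 190 CPM in control, 54.4 after 3 days, 34.9 after 6 days and 322 in MetaICM. The other 5 pericyte markers did not pass against control in any condition, and ABCC9 was higher at 6 than at 3 days (0.79, adjusted p = 0.00999 from edgeR's test). ABCC9 was lower in MetaICM than at 6 days (−0.90, adjusted p = 0.000179 from edgeR's test), whereas CSPG4 was higher (3.20, adjusted p = 6.89e-18). Against control, CSPG4 was not called in MetaICM without control replicate 2 (0.57).

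Of 12 striated muscle markers, 10 were under 1 CPM in every library, among them MYH6, MYH7, TNNI3 and MYOD1. TTN, the giant sarcomere protein titin, was the main exception, with 203 CPM in control, 207 after 3 days, 190 after 6 days and 101 in MetaICM, where it was lower than control (log2FC −1.01, adjusted p = 0.000443 from edgeR's test). NPPA, a cardiac hormone, had 0.817 CPM in control and 0.905 in MetaICM. Of the leukocyte markers, CD3E of T cells was under 1 CPM throughout, whereas CD68, a lysosomal protein of macrophages and other cells, rose from 4.79 CPM in control to 18.2 after 3 days, 18.1 after 6 days and 12.9 in MetaICM (adjusted p = 4.03e-05, 2.44e-05 and 0.000875 from edgeR's tests). CD14 passed in MetaICM (1.24 against 0.468 CPM, adjusted p = 0.0415 in edgeR), close to the cutoff. PTPRC had 0.410 CPM in control, 0.760 after 3 days, 1.12 after 6 days and 0.235 in MetaICM. In MetaICM it was lower than at both ICM times (log2FC −1.65 and −2.25, adjusted p = 0.0236 and 0.000487 from edgeR's tests). CD14 and PTPRC were near the detection limit, and no alternative is given for their calls. Among endothelial markers, PECAM1 and CDH5 were under 1 CPM in every library, TEK, a receptor for angiopoietins, ranged from 126 to 225 CPM between the conditions, and VWF was higher after 6 days (4.70 against 2.50 CPM, adjusted p = 0.0175 from edgeR's test), a call lost with DESeq2 and without either 6-day library. In MetaICM, VWF and KDR were lower than after 3 days (log2FC −1.31 and −1.47, adjusted p = 0.000973 and 0.00457 from edgeR's tests). They were also lower than after 6 days (−1.55 and −1.49, adjusted p = 1.09e-05 and 0.0016 in edgeR), whereas TEK was higher than after 3 days (0.84, adjusted p = 1.34e-06). Of 5 epithelial markers, 4 were under 1 CPM throughout. The part of these markers in the results was not tested.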

How the data were processed

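The authors aligned paired-end factory RNA-Seq reads of 8 IMR90 libraries with STAR (version 2.6.0c, submitters' processing notes) to hg19 (GRCh37) and deposited, per library, raw exonic read-pair counts for 28265 RefSeq genes. Per the file headers, featureCounts (version 1.6.3) took primary alignments with both ends mapped, without chimeric pairs, without strand, and without pairs on several places or several genes. Intronic counts, on which the study's own nascent RNA values rest, were not analysed here.

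Each pair of conditions was fitted alone (4 libraries, 6 comparisons) with edgeR (version 4.0.16, R 4.3.3): TMM, filterByExpr at a count minimum of 10, quasi-likelihood test, Benjamini-Hochberg adjustment over all genes tested, with cutoffs of 0.05 for the adjusted p and 0.6 for the absolute log2FC. Library totals ranged from 12095123 to 23166405 counts. CPM used TMM over all 8 libraries, and correlations used log2 CPM with a prior count of 2. The 10 genes and the lists of regulators, contractile genes, paralogs and cell type markers were chosen with earlier results of these data known. Beside the 10 genes, the text names SRF, MRTFA, MRTFB, paralogs, for each comparison the 3 genes of the lists with the largest log2FC in each direction, and the 5 genes most like MYOCD or the mean of ACTA2, TAGLN and CNN1. GATA6, MEF2D, CSRP2, FHL2, TPM1, MYLK, AMBRA1 and the single markers were named after their values were seen.

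Alternatives were DESeq2 (version 1.42.0), DESeq2 size factors, library totals, all genes with a count, a single fit of the 8 libraries, replicate numbers as a block, thinning to 12095123 counts, an adjusted p of 0.01, each library left out, and, chosen after seeing the data, unshared exon bases and crossed replicate numbers. A library left alone in its condition was assumed to vary like the others. The fits were tested on simulated data with 200 changed genes. Tables and figures were made with pandas 2.3.3, matplotlib 3.10.9, scipy 1.17.1 and numpy 2.4.6 in Python 3.11.15.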

Additional observations from a re-analysis of the deposited data

Results flagged for a closer look

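MYOCD was flagged because its difference from control had opposite signs at the 2 times of ICM, with a log2FC of 0.92 after 3 days and −1.32 after 6 days, and because both libraries of each time lay on their own side of both control libraries. As this is the pattern on which the gene was chosen, the difference between the times (log2FC −2.25) is given without a p-value and is no test.

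Of the regulator and contractile lists, 10 genes passed between 6 and 3 days of ICM in the direct comparison (edgeR, adjusted p-values), and 6 of them were named by rule. JPH2 was lower by a log2FC of −1.76 (adjusted p = 0.00219 from edgeR), PDLIM7 by −1.24 (adjusted p = 2.88e-08), KLF4 by −1.16 (adjusted p = 0.00442), TGFB1I1 by −1.15 (adjusted p = 3.71e-07) and SRF by −0.88 (adjusted p = 0.000165), the last not called without 3-day replicate 1 (−0.58). SYNPO2 was higher by 0.73 (adjusted p = 0.000149 from edgeR). The other 4 were TPM1 (−1.07), MEF2D (−0.70), CSRP2 (−0.68) and FHL2 (−0.62), the last not called without 3-day replicate 1 or 6-day replicate 1. With 2 libraries per condition, no library could be tested for standing apart.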

How the results depend on the processing

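For the log2FC and counts of the 10 genes, no alternative other than leaving out a library turned a direction, and the numbers that passed stayed within 1.5 times. Among control, 3 days and 6 days these numbers depend on how the genes were chosen, so nothing is read from their stability. DESeq2 in place of edgeR gave 451 genes lower at 6 than at 3 days, against 719. An adjusted p of 0.01 gave 664 higher and 868 lower genes for MetaICM against control, against 1179 and 1430. The regulators lower after 3 days went from 2 to 1 with DESeq2, library totals or an adjusted p of 0.01. The contractile genes higher after 3 days went from 0 to 1 with all genes with a count or with the replicate block, and those higher after 6 days from 1 to 0 at an adjusted p of 0.01. The regulators higher in MetaICM than after 3 days went from 1 to 0 with DESeq2 size factors, library totals or thinning. The cause of these moves was not tested, apart from the stricter threshold.

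With each library left out, the number higher after 3 days ranged from 851 to 1898 over all genes and from 1 to 2 for regulators, and that of regulators lower from 1 to 5. The contractile genes ranged from 0 to 1 higher after 3 and after 6 days and from 1 to 2 higher between them. The regulators higher after 6 days ranged from 1 to 2. For MetaICM against control, 469 to 2116 genes were higher and 580 to 1970 lower, with 0 to 1 regulators and 3 to 5 contractile genes higher; against 3 days, 1 to 2 contractile genes were lower. The log2FC of MetaICM that turned sign were, against control, those of TAGLN (from −0.13 to 0.30, with −0.010 in between), CNN1 (−0.40 to 0.0080) and LMOD1 (−0.089 to 0.26), and, against 3 days, CARMN (−0.0070 to 0.41) and MIR145 (−0.23 to 0.40). Among the regulators named, those with a sign that turned were KLF4 (−0.13 to 0.30) and SRF (−0.50 to 0.061) after 3 days, MRTFA after 6 days (−0.038 to 0.27) and SRF in MetaICM against control (−0.17 to 0.24); none of these had passed.

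Nothing in the labels says that a replicate number pairs libraries. Deviations of same-numbered libraries correlated by 0.25 between control and 3 days, 0.071 between control and 6 days, −0.044 between control and MetaICM, 0.14 between 3 and 6 days, −0.15 between 3 days and MetaICM and 0.053 between 6 days and MetaICM, so the numbers were not taken as pairs. The block moved the genes higher after 3 days from 1389 to 1606 and those lower from 2067 to 2309. With crossed numbers as the block, 2182 genes were higher and 1774 lower in MetaICM than after 3 days. Depth limits TNNT2 and, after 6 days, MIR145.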
